A study of Mus musculus with 4 samples.

Results

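Undifferentiated spermatogonia are the germ cells at the base of the seminiferous tubule from which spermatogenesis is renewed. The genes described here are 9 that mark or maintain these cells: Zbtb16, Gfra1, Ret, Nanos2, Nanos3, Id4, Sall4, Lin28a and Uchl1. They were chosen by symbol, for their known role, at a time when earlier results of these data were known. All 10 probe sets paired with those symbols on the array were taken, of 23099 named probe sets. Thus 9 of the 18820 genes with a value of their own are described. Lin28a has 2 probe sets and each of the others 1, and the probe set with the highest mean gave the value of a gene. Whole testes of adult mice, either Azin2 KO or Azin2 WT, gave the RNA, which was hybridised to Affymetrix Mouse Gene 1.1 ST arrays, 2 per genotype and 4 in all, and the RNA on an array was pooled from 3 mice. The animals of the study were 3 to 4 months old. In KO mice, which have a mixed C57BL/6 background and are also described as hypomorphic, a β-Geo cassette lies between exons 4 and 5 of Azin2 and fuses the truncated gene to bacterial lacZ, and WT mice carry the intact Azin2. The background of the WT mice, and whether they were littermates of the KO mice, is not given in the sources used here. Values are log2 signals after RMA (robust multi-array average, which corrects background and brings the arrays to one distribution), and signals are compared between arrays only, since the brightness of a probe set also depends on its probes.

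The array medians lay between 6.08 and 6.11, and arrays of one genotype differed as much (SD of the difference 0.169 for KO and 0.166 for WT) as arrays of different genotypes (0.156 to 0.181). Azin2, the targeted gene, was at 7.36 and 7.14 in KO testes, and both WT arrays lay above it (mean 10.08 ± 0.11, SD, n = 2 pools), with a log2 fold change of -2.83. It was the 1 gene of all that passed the threshold (adjusted p = 0.0250 from limma). Markers of testis were bright on all arrays: the protamine gene Prm1 was at 12.34 and 12.33 in KO testes and at 12.40 and 12.38 in WT testes. Whole testis was measured, so that fewer spermatogonia and less RNA per spermatogonium cannot be told apart.

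In the mouse testis, Sertoli cells secrete GDNF, a growth factor that binds the co-receptor GFRA1 on undifferentiated spermatogonia and signals through the receptor tyrosine kinase RET. Within these cells, transcription factors and RNA-binding proteins such as ZBTB16 (also called PLZF) and NANOS2 hold back differentiation, and the balance between renewal and entry into differentiation keeps sperm production going for life. Undifferentiated spermatogonia are rare in the adult testis, where meiotic and haploid germ cells are by far more numerous.

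At an adjusted p of 0.05 in limma, 0 of the 9 genes were called, beside 0.00531% of all genes, and 0 of the 9 passed a fold of 1.5 with an unadjusted p under 0.05, beside 0.0956% of all genes. The unadjusted p alone called 1 of the 9, Lin28a, which was higher in KO testes; 3.95% of all genes were called by it, and 2.18% were called as higher in KO testes. The log2 fold changes (KO minus WT) ranged from -0.05 for Nanos3 to 0.23 for Lin28a, with a median of 0.10, beside a median of 0.01 over all 18820 genes. Of the 9, 8 were above 0, beside 56.6% of all genes. The 95% confidence intervals from limma ran from -0.28 at the lowest to 0.51 at the highest, inside a fold of 1.5 (0.58 on the log2 scale) for all 9 genes. By the ordinary equal-variance test the standard errors were 0.21 for Uchl1, 0.18 for Sall4, 0.17 for Ret and 0.16 for Zbtb16. With these, the intervals of those genes would reach past a fold of 1.5, so the bound holds for limma only. The standard error of Lin28a was smaller by that test (0.036). With 2 pools against 2, an exact permutation test of a single gene (two-sided) cannot go below p = 0.333.

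**Figure D1:**
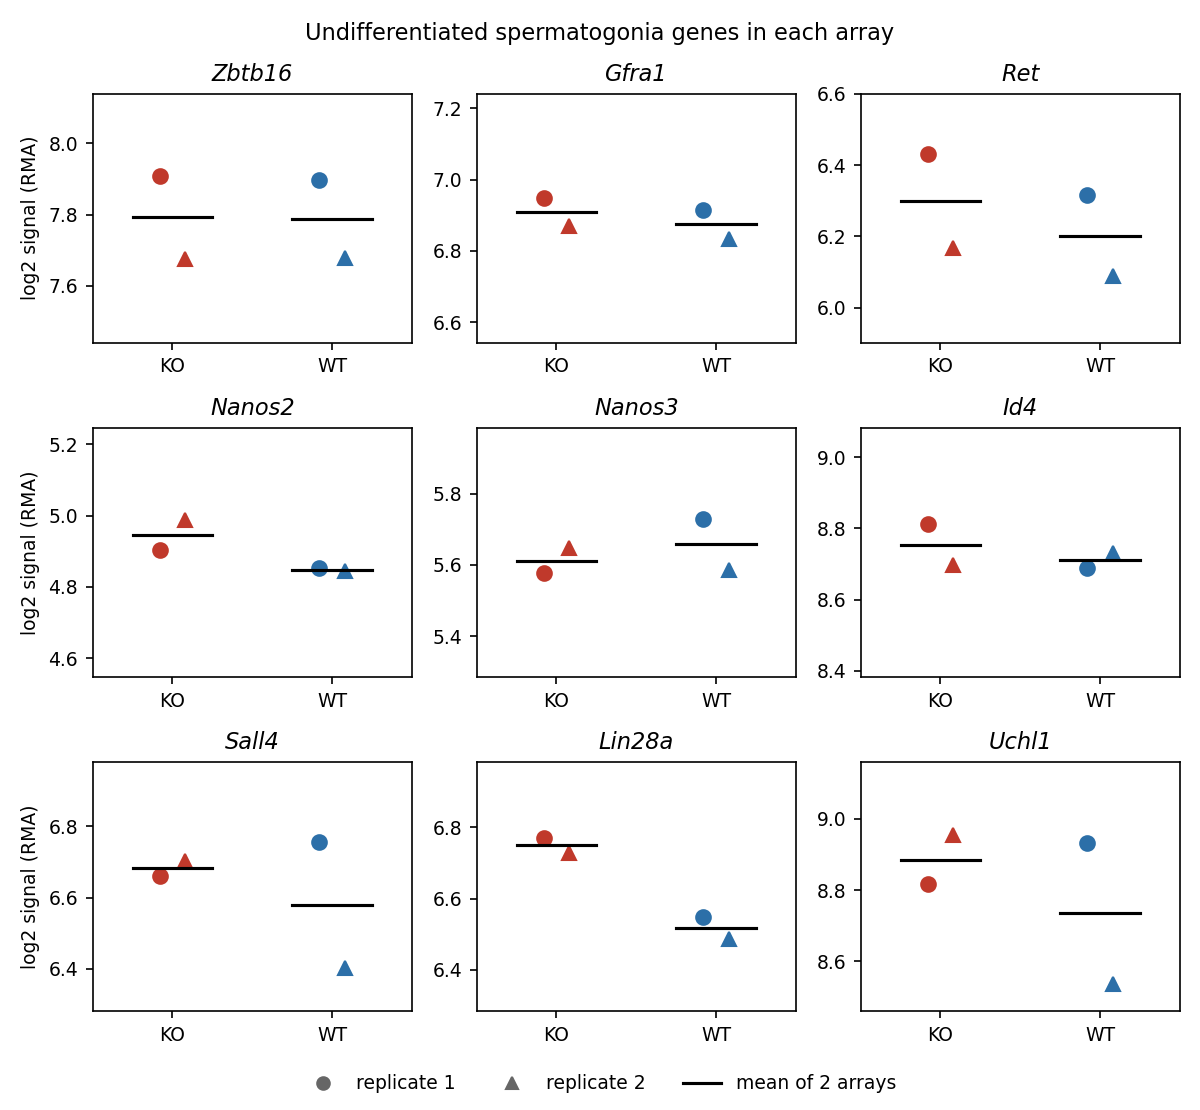
Log2 signal (vertical axis, each panel spanning the same width) of the 9 genes in KO (red) and WT (blue) testes. Each symbol is 1 array, circles for replicate 1 and triangles for replicate 2, and bars are means of 2 arrays. KO and WT symbols are separate for Lin28a and Nanos2 and overlap for the other 7 genes.

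**Figure D2:**
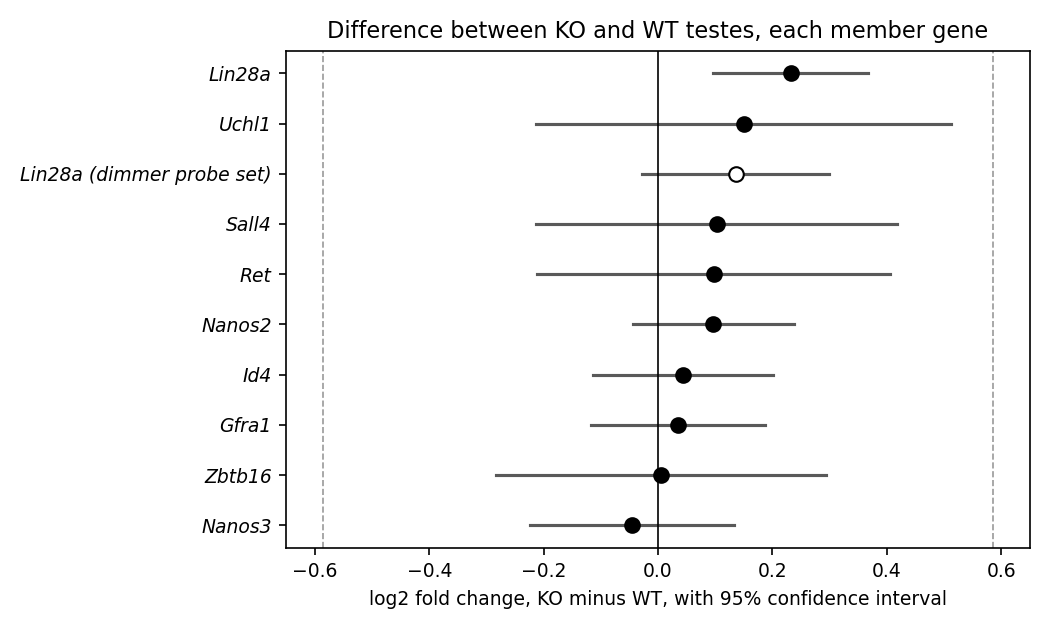
Log2 fold change, KO minus WT, along the horizontal axis with its 95% confidence interval from limma, for the 10 probe sets in order of size. Dashed lines mark a fold of 1.5. The interval of the brighter Lin28a probe set, from 0.10 to 0.37, is the one that does not include 0.

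Both components of the GDNF receptor gave values that overlapped between the genotypes. Gfra1, which encodes the co-receptor that binds GDNF, was at 6.95 and 6.87 in KO testes and at 6.91 and 6.83 in WT testes. Its log2 fold change was 0.03 (standard error 0.06, 95% confidence interval -0.12 to 0.19). Ret, the gene of the receptor tyrosine kinase, was at 6.43 and 6.17 in KO testes and at 6.32 and 6.09 in WT testes. The 2 KO pools of Ret differed by 0.26, and its log2 fold change was 0.10 (standard error 0.12). In both genes replicate 1 was above replicate 2 in both genotypes. Of the 9 other GDNF family ligands and co-receptors listed, all were measured and 0 passed an adjusted or an unadjusted p of 0.05 in limma. Gdnf itself was at 5.61 and 5.57 in KO testes and at 5.52 and 5.39 in WT testes, so that both KO pools lay above both WT pools. Its log2 fold change was 0.13 (unadjusted p = 0.0859 from limma), at a signal below the median of every array. Nrtn, the gene of the related ligand neurturin, had a log2 fold change of 0.10, Artn (artemin) of -0.04 and Gfra2, the co-receptor for neurturin, of -0.0086.

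The 3 transcriptional regulators had KO and WT pools that overlapped. Zbtb16, a zinc finger repressor without which the stem cell pool is lost over time, was at 7.91 and 7.68 in KO testes and at 7.90 and 7.68 in WT testes. Its genotype means, 7.79 ± 0.16 (SD, n = 2 pools) in KO and 7.79 ± 0.15 in WT testes, differed by 0.0056 (standard error 0.11), whereas replicate 1 exceeded replicate 2 by 0.23 in KO and by 0.22 in WT testes. Id4 encodes a protein that binds basic helix-loop-helix factors and keeps them off DNA, and it marks the cells richest in stem cell activity. It was at 8.81 and 8.70 in KO testes and at 8.69 and 8.73 in WT testes, with overlapping groups (log2 fold change 0.04, standard error 0.06). Sall4, a zinc finger factor shared with embryonic stem cells, was at 6.66 and 6.70 in KO testes and at 6.76 and 6.40 in WT testes. WT replicate 2 of Sall4 stood below the other 3 arrays, and the log2 fold change of 0.10 (standard error 0.12) was -0.075 without it and 0.28 without WT replicate 1.

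The RNA-binding proteins held both genes whose genotypes were separate. Nanos2 encodes a zinc finger protein that represses mRNAs of differentiation in GFRA1-positive cells. It was at 4.90 and 4.99 in KO testes and at 4.85 and 4.85 in WT testes, so that both KO pools lay above both WT pools by a small step. Its log2 fold change was 0.10 (standard error 0.05, 95% confidence interval -0.04 to 0.24, unadjusted p = 0.137 from limma), and 0.05 with KO replicate 2 left out. The Nanos2 signal was below the median of every array, and no detection call was used here. Nanos3, which acts in a broader range of undifferentiated cells, was also below every array median, at 5.58 and 5.65 in KO testes and at 5.73 and 5.59 in WT testes. It was the 1 gene of the 9 with a mean lower in KO testes (log2 fold change -0.05, standard error 0.07). In all, 2 of the 9 genes had KO and WT pools that did not overlap, beside 32.4% of all genes. In both the KO pools were the higher ones, beside 20.3% of all genes.

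Lin28a encodes the protein that blocks maturation of let-7 microRNAs and is present in most undifferentiated spermatogonia of the mouse. Its brighter probe set was at 6.77 and 6.73 in KO testes and at 6.55 and 6.49 in WT testes. The KO mean of 6.75 ± 0.03 (SD, n = 2 pools) was 117% of the WT mean of 6.52 ± 0.04 on the linear scale (95% confidence interval 107% to 129%). Its log2 fold change of 0.23 had a standard error of 0.05 and an unadjusted p of 0.00703 in limma, and it did not pass after adjustment over all named probe sets (adjusted p = 0.9995). The dimmer probe set, below the median of every array, was at 4.88 and 4.97 in KO testes and at 4.84 and 4.74 in WT testes. Both KO pools again lay above both WT pools (log2 fold change 0.14, standard error 0.06, unadjusted p = 0.0855 from limma). The annotation gives the same accessions for both Lin28a probe sets. Which strand and which parts of the transcript each covers was not examined, so the dimmer one may not be a second reading of Lin28a.

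Of the 9 genes, 6 have a promoter in the RefSeq sequences used here (GRCm38.p6, 250 bases before to 50 bases after the transcript start). Those of Lin28a (chr4:134018767-134019066, minus strand) and Nanos2 (chr7:18987274-18987573, plus strand) are shown because these were the genes whose KO and WT pools were separate. They are written 5′ to 3′ on the strand of the gene, with capitals for CANNTG, the E-box bound by the helix-loop-helix factors that ID4 holds back, and for TATAAA on either strand:
Lin28a: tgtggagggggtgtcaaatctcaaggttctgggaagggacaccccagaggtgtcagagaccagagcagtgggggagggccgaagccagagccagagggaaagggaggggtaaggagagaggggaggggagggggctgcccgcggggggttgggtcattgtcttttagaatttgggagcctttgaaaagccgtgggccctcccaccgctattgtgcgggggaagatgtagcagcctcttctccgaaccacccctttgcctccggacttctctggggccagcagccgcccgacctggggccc
Nanos2: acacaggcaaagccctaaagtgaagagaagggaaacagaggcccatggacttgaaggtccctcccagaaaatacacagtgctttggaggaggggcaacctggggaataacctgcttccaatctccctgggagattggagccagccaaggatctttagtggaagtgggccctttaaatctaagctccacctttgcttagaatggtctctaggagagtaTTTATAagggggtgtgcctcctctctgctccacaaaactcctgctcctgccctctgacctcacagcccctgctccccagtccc
Neither holds CANNTG, and the 1 match in capitals, in Nanos2, is TATAAA on the opposite strand. Over the 6 promoters, CANNTG was found in 2 (3 copies in Gfra1 and 2 in Nanos3) and TATAAA in 1, beside 72.3% and 13.6% of 32851 promoters of the same length. These are matches of letters and were not set against any change in expression.

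Lin28a is the 1 member on chromosome 4, the chromosome of Azin2, and lies 5.1 Mb from it (start to start, 128930233 for Azin2 and 134003330 for Lin28a in GRCm38.p6), with 90 measured genes between them. Around it, 14 of 46 genes within 1 Mb (30.4%) were called at an unadjusted p under 0.05 in limma, 10 higher and 4 lower in KO testes, beside 3.95% of all genes, and none of the 46 passed an adjusted p of 0.05. The nearest measured gene, Dhdds, which encodes a subunit of the enzyme that makes the dolichol backbone, ends 2.37 kb from Lin28a. It was at 9.03 and 9.11 in KO testes and at 8.86 and 8.65 in WT testes. The difference was 0.32 on the log2 scale (unadjusted p = 0.0132 from limma). The next in that direction, Hmgn2, the gene of a nucleosome-binding protein, had a log2 fold change of 0.17. Crybg2, the nearest on the other side, was at 5.15 and 5.16 in KO testes and at 5.21 and 5.29 in WT testes, with a log2 fold change of -0.09. The other genes called higher were Tent5b (0.55), Zfp593 (0.35), Kdf1 (0.35), Map3k6 (0.33), Zdhhc18 (0.25), Catsper4 (0.17), which encodes a subunit of the calcium channel of sperm, Sfn (0.16) and Zpld2 (0.14). Those called lower were Cd164l2 (-0.48), Gpr3 (-0.31), Ahdc1 (-0.27) and Cep85 (-0.17). Of the called genes, Zpld2 was below the median of every array, and Gpr3 was above it on WT replicate 2 only. Positions are those of the annotated genes, and where the probes lie was not examined. The probe sets of Hmgn2 and Sfn are numbered apart from those of the other called genes, so their probes may lie elsewhere. By the ordinary equal-variance test 6 of the 46 (13%) were called, beside 4.97% of all genes. Leaving out KO replicate 1, KO replicate 2 or WT replicate 2 lowered the count of 14. The share of the 46 stayed above that of all genes in each case. With each array left out in turn, Dhdds ranged from 0.21 to 0.42, Tent5b from 0.25 to 0.85 and Cd164l2 from -0.57 to -0.39. The part that the position near the targeted locus has in the value of Lin28a was not tested.

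**Figure D3:**
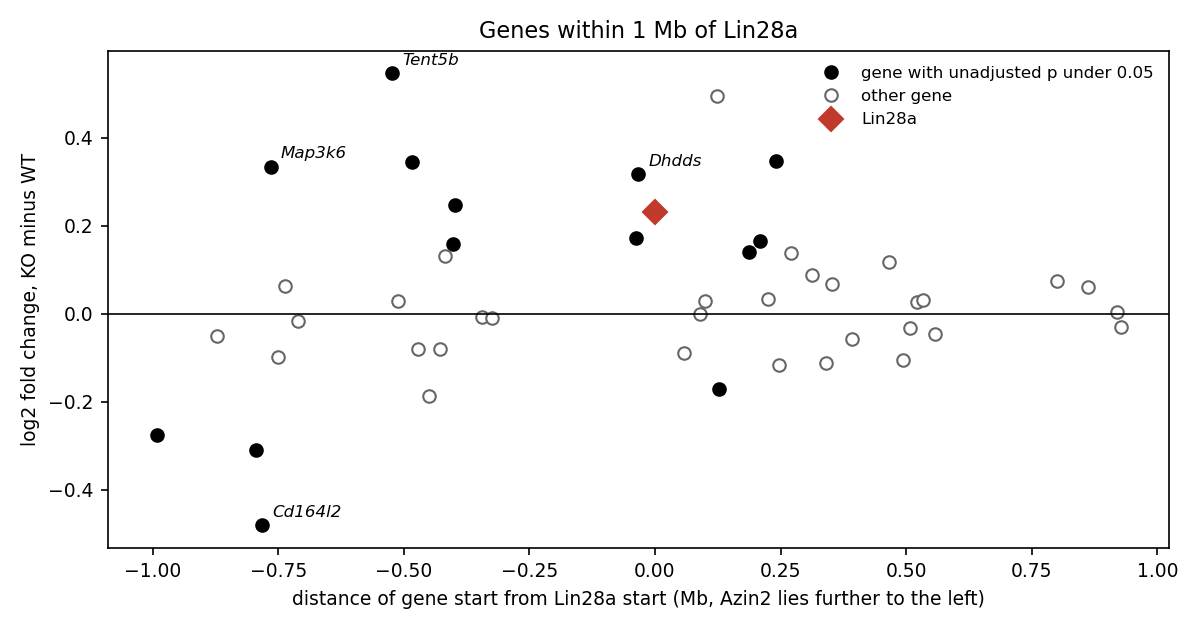
Log2 fold change, KO minus WT, along the vertical axis for the 46 measured genes within 1 Mb of Lin28a, by the distance of their start from that of Lin28a in Mb. Filled points are the 14 genes with an unadjusted p under 0.05 in limma and the diamond is Lin28a at 0.23. Called genes lie on both sides of 0, from -0.48 for Cd164l2 to 0.55 for Tent5b.

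Uchl1 encodes a deubiquitinase that is abundant in spermatogonia and in neurons. It was at 8.82 and 8.95 in KO testes and at 8.93 and 8.54 in WT testes, with WT replicate 2 again apart from the other 3 arrays. Its log2 fold change of 0.15 (standard error 0.14, 95% confidence interval -0.21 to 0.51) became -0.047 with WT replicate 2 left out and 0.35 with WT replicate 1 left out. Nerve markers, of which 7 of 10 were measured, were dim and alike on the 4 arrays: their summed linear signal was 229 and 225 in KO testes and 232 and 227 in WT testes. The part of nerve in the Uchl1 values was not tested.

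Across the 9 genes, single arrays moved several values together. In 6 of the 9 WT replicate 2 was the lowest array, beside 30.1% of all genes. In 4 of the 9 (Zbtb16, Gfra1, Ret and Lin28a) replicate 1 was above replicate 2 in both genotypes, beside 21.7% of all genes. The wider gap between pools of one genotype exceeded the difference between the genotype means in 7 of the 9, the exceptions being Lin28a and Nanos2, a share near that of all genes (79%). Relative to each gene's mean over the 4 arrays, the members averaged 0.06 on KO replicate 1, 0.02 on KO replicate 2, 0.04 on WT replicate 1 and -0.12 on WT replicate 2. When KO replicate 1 was left out, the median of 0.10 over the members became -0.0051, and with WT replicate 2 left out it became -0.016. Leaving out KO replicate 2 gave 0.08, and WT replicate 1 gave 0.11. WT replicate 2 was also the lowest array for the lists of other undifferentiated spermatogonia genes (-0.04), the GDNF family (-0.04), paralogs of the members (-0.02) and differentiating spermatogonia (-0.05). Sertoli cell markers, all 10 of which were measured, were lowest on that array as well. They averaged -0.01 and 0.10 in KO and 0.03 and -0.12 in WT testes, and their summed linear signal was 5565 and 5913 in KO testes and 5833 and 5302 in WT testes. All 10 had log2 fold changes above 0, from 0.01 for Clu and 0.02 for Dhh to 0.15 for the FSH receptor gene Fshr and 0.21 for Amh, and none passed an unadjusted p of 0.05 in limma. The part of Sertoli cells in the values of the 9 genes was not tested.

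**Figure D4:**
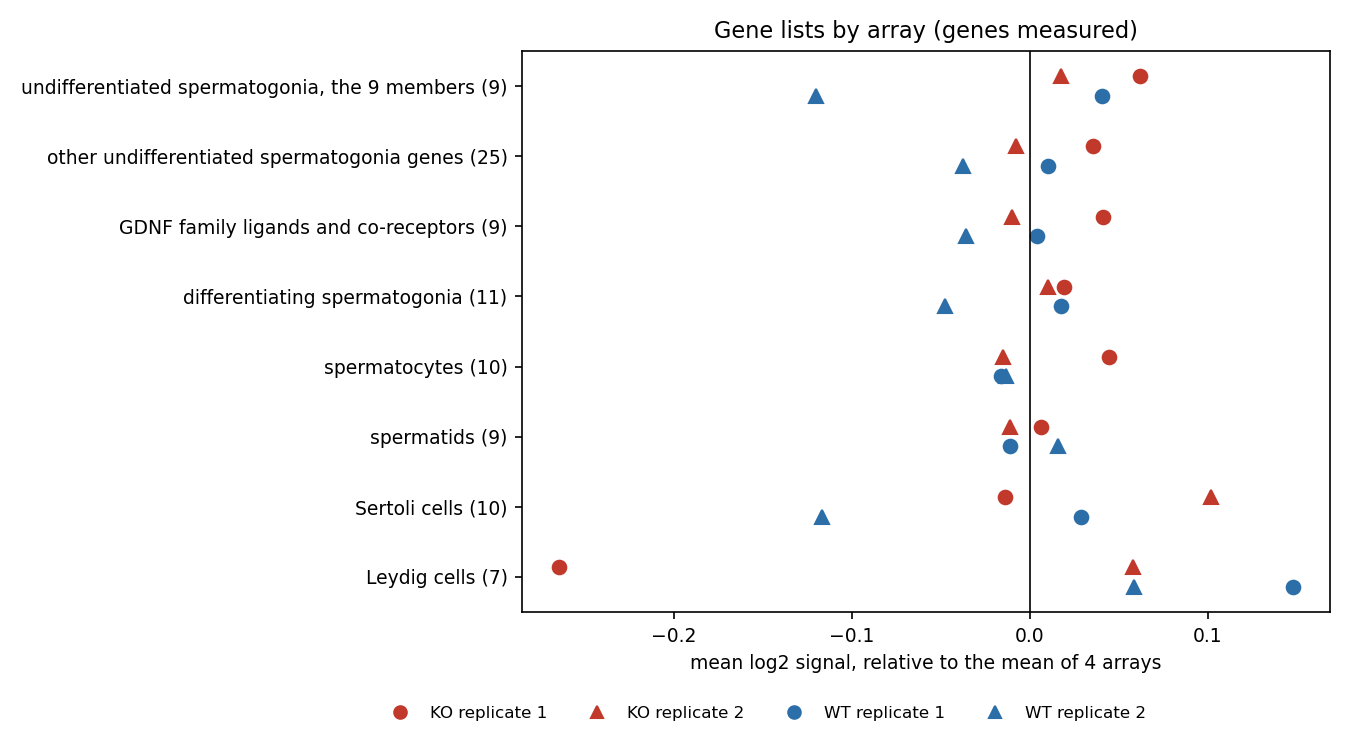
Mean log2 signal of 8 gene lists on each array, relative to each gene's mean over the 4 arrays (horizontal axis). KO arrays are red and WT arrays blue, circles are replicate 1 and triangles replicate 2, and the number of genes measured is in parentheses. WT replicate 2 is the lowest array for the 9 members (-0.12) and for Sertoli cells (-0.12). It is also the lowest for other undifferentiated spermatogonia genes (-0.04), the GDNF family (-0.04) and differentiating spermatogonia (-0.05). KO replicate 1 is the lowest for Leydig cells (-0.26).

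Other genes of undifferentiated spermatogonia were taken from a second list. Of 26 listed, 25 had a value of their own, T being without one. Of these, 16 were above 0, beside 56.6% of all genes, with a median log2 fold change of 0.05 (0.01 with KO replicate 1 left out), and 0 passed an adjusted p of 0.05 in limma. At an unadjusted p under 0.05, 3 were higher and 1 was lower in KO testes, beside 3.95% of all genes called in either direction and 2.18% called as higher. Shisa6, a transmembrane protein gene that marks a subset of undifferentiated spermatogonia, was at 5.11 and 5.06 in KO testes and at 4.89 and 4.89 in WT testes. The difference was 0.20 on the log2 scale (unadjusted p = 0.0112 from limma), at a signal below the median of every array. Glis3, a zinc finger factor needed as gonocytes become spermatogonia, had a log2 fold change of 0.20 (unadjusted p = 0.0155 from limma) and Sox3, an X-linked factor needed for spermatogonia to progress, of 0.18 (unadjusted p = 0.0220 from limma). Pou5f1, the pluripotency factor also called Oct4, was at 5.81 and 5.71 in KO testes and at 5.97 and 6.22 in WT testes. KO minus WT was -0.34 on the log2 scale (unadjusted p = 0.0174 from limma). The Pou5f1 signal was above the array median on WT replicate 2 only. Tspan8, a tetraspanin of cells rich in stem cell activity, had a log2 fold change of -0.26, with WT pools at 5.51 and 5.08. It too was below the median of every array.

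Among 11 paralogs of the members, 0 passed an unadjusted p of 0.05 in limma, with a median log2 fold change of 0.0022. Lin28b, the paralog of Lin28a and also among the 25 genes above, was at 6.26 and 6.36 in KO testes and at 6.26 and 6.60 in WT testes (log2 fold change -0.12, standard error 0.12), so that its groups overlapped. Nanos1 was at -0.03, Sall2 at 0.06 and Sall3, whose KO pools lay above its WT pools, at 0.18. Of 10 genes for niche factors and their receptors, 8 were below 0 and 0 passed the unadjusted p. The lowest and highest log2 fold changes were -0.24 for Csf1r, the CSF1 receptor of macrophages, -0.11 for Csf1, 0.01 for Fgf2 and 0.03 for Cxcr4.

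The next stage of the lineage, differentiating spermatogonia, was measured with 11 of 12 genes, 6 above and 5 below 0. Their median log2 fold change of 0.03 had no stable sign, at 0.11 with KO replicate 2 left out and -0.0031 with WT replicate 2 left out. Lmo1 was higher at the unadjusted threshold (log2 fold change 0.19, unadjusted p = 0.0258 from limma). Kit, the receptor gene that is turned on as spermatogonia differentiate, was at 8.20 and 8.81 in KO testes and at 8.75 and 8.58 in WT testes (log2 fold change -0.16, standard error 0.20). Without KO replicate 1 the Kit value was 0.14, and without KO replicate 2 it was -0.46. Dnmt3b had a log2 fold change of -0.04 and Dmrt1 of 0.13. In spermatocytes the median was 0.04 over 10 genes, from -0.06 for Ldhc and -0.0095 for Sycp2 to 0.06 for Mlh3 and 0.08 for Sycp3. In spermatids it was 0.0048 over 9 genes, from -0.05 for Prm1 and -0.03 for Akap4 to 0.02 for Acrv1 and 0.02 for Crem. In neither list did a gene pass an unadjusted p of 0.05 in limma.

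Of the remaining somatic lists, that of Leydig cells differed most between arrays. All 7 measured Leydig cell genes of 9 listed were below 0, with a median log2 fold change of -0.08, and the list was lowest on KO replicate 1 (-0.26, beside 0.06 on KO replicate 2, 0.15 on WT replicate 1 and 0.06 on WT replicate 2). With KO replicate 1 left out the median was 0.0041, with Hsd3b1 at 0.21, Cyp11a1 at 0.13, Cyp17a1 at 0.0041 and Sult1e1 at -0.71. With KO replicate 2 left out the median was -0.19. Sult1e1, an estrogen sulfotransferase gene, stayed below 0 with each array left out in turn (-1.33 to -0.71). It was at 8.72 and 9.34 in KO testes and at 10.05 and 10.05 in WT testes. KO minus WT was -1.02 on the log2 scale (unadjusted p = 0.00397 from limma), beside -0.02 for Cyp17a1, -0.03 for Cyp11a1 and -0.14 for Hsd3b1, genes of steroid synthesis. Of 9 genes of myoid cells, vessels and macrophages, 6 were below 0 with none past an unadjusted p of 0.05, from -0.25 for Cd68 and -0.24 for Csf1r to 0.08 for Acta2 and 0.15 for Cnn1. Among the 7 nerve markers, none past that threshold either, log2 fold changes ran from -0.13 for Sox10 and -0.06 for Th to 0.04 for Nefl and 0.15 for Prph. The part of these cell types in the values of the 9 genes was not tested.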

How the data were processed

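The authors deposited log2 signals per probe set, made from the array scans with RMA. The submitters' processing notes name Partek 6.13.1224, and the paper's methods name Affymetrix software for scanning and analysis. The genome build and the level of summarization are not given in the sources used here. Names of probe sets came from the GEO platform annotation, updated through Entrez identifiers to RefSeq symbols. Of 35556 probe sets, 23099 were named, 1881 of them with several symbols, and 12457 have no name here. All named probe sets entered a fit of KO minus WT in limma 3.58.1 in R 4.3.3 (lmFit and eBayes, no filter), with Benjamini-Hochberg adjustment over all of them. The prior had 2.96 degrees of freedom. The fit was tested on simulated data. Per gene, the probe set with the highest mean was used. Intervals are at 95%, and the number of arrays limits the precision. The p-values from limma rest on the spread between 2 pools per genotype, drawn towards a prior variance estimated over all named probe sets.

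The members, lists and tests were chosen with earlier results of these data known. Besides the members, the genes named are the 2 highest and 2 lowest log2 fold changes of each list, genes past an unadjusted p of 0.05, and the neighbours of Lin28a. Sequences and positions are from RefSeq on GRCm38.p6. Tables and figures used Python 3.11.15 and matplotlib 3.10.9. Alternatives were another variance prior, an ordinary test, quantile normalization or centring of arrays, removal of dim probe sets, inclusion of the unnamed ones, the replicate number as a block, the mean of the probe sets of a gene, and each array left out.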

Additional observations from a re-analysis of the deposited data

How the results depend on the processing

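No member passed an adjusted p of 0.05 under any setting run, the smallest being 0.920. Over 12 alternatives in which it was measured, the brighter Lin28a probe set stayed above 0 (0.20 to 0.26, and 0.18 as the mean of both probe sets), with an unadjusted p between 0.00623 and 0.0408 from limma or the ordinary test. When probe sets below the median level were dropped, Lin28a and 5 other members were not tested. Without 1 array, with the lone array of a genotype assumed to vary like the other genotype, log2 fold changes ranged from -0.11 to 0.12 for Zbtb16, -0.0052 to 0.075 for Gfra1, -0.034 to 0.23 for Ret, -0.015 to 0.10 for Id4, -0.12 to 0.026 for Nanos3, -0.075 to 0.28 for Sall4, -0.047 to 0.35 for Uchl1 and 0.05 to 0.14 for Nanos2, which kept its sign. Over the other lists, the medians ranged from -0.19 to 0.0041 for Leydig cells, -0.0031 to 0.11 for differentiating spermatogonia, 0.0041 to 0.16 for Sertoli cells, -0.0073 to 0.07 for the GDNF family, -0.13 to 0.02 for myoid cells, vessels and macrophages, -0.02 to 0.02 for paralogs, -0.02 to 0.02 for spermatids and -0.04 to 0.01 for nerve. Medians that kept their sign were those of other undifferentiated spermatogonia genes (0.01 to 0.08), spermatocytes (0.02 to 0.08) and niche factors (-0.06 to -0.0091), besides Sertoli cells. The median of the members ranged from -0.016 to 0.11, and was 0.07 without Lin28a, an alternative added after seeing the data. Without WT replicate 1, the largest log2 fold changes of the members were 0.35 for Uchl1, 0.28 for Sall4 and 0.26 for Lin28a. The count of named probe sets past an adjusted p of 0.05, which was 1, was 0 by the ordinary equal-variance test, 0 over every probe set of the table, and 0 to 2 without 1 array. At an unadjusted p under 0.05 it was 946, against 1154 by the ordinary test and 1724 over every probe set. The count of genes near Lin28a, which was 14, was 6 by the ordinary equal-variance test, 9 when probe sets below the median level were dropped, where 29 genes were tested, and 7 to 14 without 1 array. With the replicate number as a block, 0 members and 1 named probe set passed an adjusted p of 0.05, and 692 named probe sets an unadjusted one. Deviations of same-numbered arrays had a correlation of -0.08 over probe sets, so the numbers were not taken as pairs. The cause of these changes was not tested.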
